A study of Saccharomyces cerevisiae with 10 samples.

Results

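These measurements describe how budding yeast lacking the gene KIN82 differed from the wild type late in a heat shock, at 15, 30 and 60 min. They rest on 6 of the 10 arrays of a series that followed Saccharomyces cerevisiae through a heat shock. The wild-type group is strain DBY8778, read as the wild type because no other strain is named, and the mutant group is delKIN82, a deletion of KIN82. Each strain has 1 array at each of 0, 5, 15, 30 and 60 min, so the late comparison sets 3 deletion arrays against 3 wild-type arrays paired by time, and the 0 and 5 min pairs serve as a separate look at the same genes. Each array carried total RNA of 1 sample against a common reference. The makeup of that reference, the temperature of the heat shock and the full genotypes are not given in the labels. The wild-type titles name a second heat shock, and the deletion titles at 0 and 60 min mark a repeat, so strain and time course cannot be told apart. No label says whether 1 culture gave all times of a strain, and p-values therefore measure only the spread between these arrays, which may be technical. The KIN82 transcript was not analysed here, and the arrays therefore give no check of the deletion.

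Kin82 is a protein kinase of the AGC group. It is a paralogue of Fpk1, and both kinases phosphorylate and activate the flippases of the plasma membrane, P-type ATPases that move phospholipids from the outer to the inner leaflet. Heat shock in yeast drives transcription through the heat shock factor Hsf1, whose targets are mainly chaperones, and through the paired zinc finger factors Msn2 and Msn4, whose targets include small heat shock proteins and enzymes of trehalose and glycogen metabolism. Genes of ribosome assembly and ribosomal proteins fall at the same time and recover as cells adapt.

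Values are log2 ratios of sample over reference with each array centred on its median, so a level of 1 is 2-fold above the reference relative to the median gene. The logarithm's base is not stated in the labels, and if it were natural, all log2 values below would grow by the same factor. The direction was read as sample over reference because chaperones rose between 0 and 5 min, 29 of 31 of them in DBY8778 (93.5%) and 28 of 31 in delKIN82 (90.3%). This inferred direction sets the sign of every value below: were the ratios reference over sample, each strain difference would change sign too, and the sizes and counts would stay. Between 5844 and 5949 genes had a value on an array, and the deposited values had array medians of -0.15 to 0.03. Of the 5983 rows, 5595 had a value on all 6 late arrays and were tested. A positive difference means a higher level in the deletion, and each is given with the standard error (SE) of the limma fit over 3 pairs. That fit draws mostly on a spread pooled over all genes, with 31.7 prior against 2 residual degrees of freedom. The SE and p-value of a gene are thus not the spread of its own 3 pairs alone. The median SE of all tested genes was 0.27.

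Late in the heat shock 42 genes of the heat stress lists described below were lower in the deletion than in the wild type, and 35 genes of the ribosome assembly lists were higher. The heat stress lists hold 31, 35 and 20 tested genes, and the 40S and 60S assembly lists 58 and 66. These lists were chosen with earlier results of these data known, so their counts are a description and not a test. Of the 5595 genes tested, 284 differed at an adjusted p under 0.05 (5.08%), with 141 higher in the deletion (2.52%) and 143 lower (2.56%). At least 2-fold differences were seen in 76 of the higher and 98 of the lower genes. All but 2 of the 284 differed in the same direction in all 3 pairs. The median difference of all tested genes was 0.01 on the log2 scale. The count depended on the setting: it was 79 without the 30 min pair, 12 after all 10 arrays were given the same distribution of values (quantile normalization), and 0 when arrays were not paired by time. Of the 24 genes named first below, 9 kept their call under quantile normalization.

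The 12 most reduced genes by this test were HSP12, TMA10, RTC3, FMP45, FIT3, SOL4, HBT1, RTN2, NDE2, BTN2, TDA1 and NCE103. Their differences ran from -2.48 to -1.63, which is 5.57-fold to 3.10-fold lower, at adjusted p between 1.9e-06 and 0.00196. HSP12 encodes a small heat shock protein that associates with membranes. Its level in the wild type was 5.77 at 15 min, 5.73 at 30 min and 3.69 at 60 min, against 2.95, 2.54 and 2.27 in the deletion. Every wild-type array lay above every deletion array. The difference was -2.48 ± 0.29 (SE, n = 3 pairs), a 5.57-fold lower level, at adjusted p = 1.9e-06.

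TMA10 encodes a ribosome-associated protein. It stood at 5.03, 4.09 and 3.04 in the wild type at 15, 30 and 60 min, and at 2.74, 1.45 and 1.15 in the deletion. The strains' ranges did not overlap here either, and the difference of -2.27 ± 0.27 had the same adjusted p as HSP12. RTC3, whose product has no well-defined role, fell from 6.29 to 5.33 and 3.82 over the late times in the wild type and from 5.18 to 3.15 and 0.88 in the deletion. The first deletion value lay above the last wild-type value, so the ranges overlapped although each pair showed a lower level in the deletion. Its difference was -2.08 ± 0.29 (4.22-fold lower, adjusted p = 2.52e-05).

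FMP45 encodes a membrane protein of the Sur7 family found at eisosomes, the furrow-like domains of the plasma membrane. Its late levels were 5.74, 3.90 and 2.46 in the wild type and 4.08, 1.09 and 0.81 in the deletion, a difference of -2.04 ± 0.28. The gap was widest at 30 min, where the strains differed by -2.81. FIT3, which encodes a cell wall mannoprotein that helps retain iron bound to siderophores, stood at 2.90, 2.34 and 0.14 in the wild type and at 1.21, -0.45 and -1.45 in the deletion. Only the last wild-type array fell among the deletion values. The difference was -2.02 ± 0.28, and FMP45 and FIT3 shared an adjusted p of 2.11e-05.

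SOL4 encodes a 6-phosphogluconolactonase of the pentose phosphate pathway. Its wild-type levels were 4.78, 3.29 and 2.49 and its deletion levels 3.92, -0.05 and 0.77. The 30 min deletion array was the lowest of the 6, and the 15 min arrays were closest. The difference was -1.97 ± 0.31 (adjusted p = 0.00018). The other 6 genes were HBT1, a partner of the ubiquitin-like protein Hub1, RTN2, a reticulon that shapes endoplasmic reticulum tubules, NDE2, an external mitochondrial NADH dehydrogenase, BTN2, a sorting factor for misfolded proteins, TDA1, a protein kinase, and NCE103, the carbonic anhydrase. Their differences were -1.96 ± 0.29, -1.87 ± 0.31, -1.72 ± 0.34, -1.66 ± 0.26, -1.63 ± 0.26 and -1.63 ± 0.27 in that order.

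These 6 genes differed in how the gap ran over time. At 15 min NDE2 stood at 3.03 in DBY8778 and -0.48 in delKIN82, a difference of -3.51, while the 30 and 60 min pairs differed by -0.98 and -0.68. Without the 15 min pair its difference was -0.83 at adjusted p = 0.084, so that call rests on 1 pair. BTN2 was lower by nearly the same step at each late time, with differences of -1.54, -1.72 and -1.72. The BTN2 gap was wider before that, at -3.09 at 0 min and -3.00 at 5 min. The NCE103 gap was -1.09 at 15 min, -1.77 at 30 min and -2.03 at 60 min. In all, 5 of the 12 genes had ranges that did not overlap between strains.

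**Figure D1:**
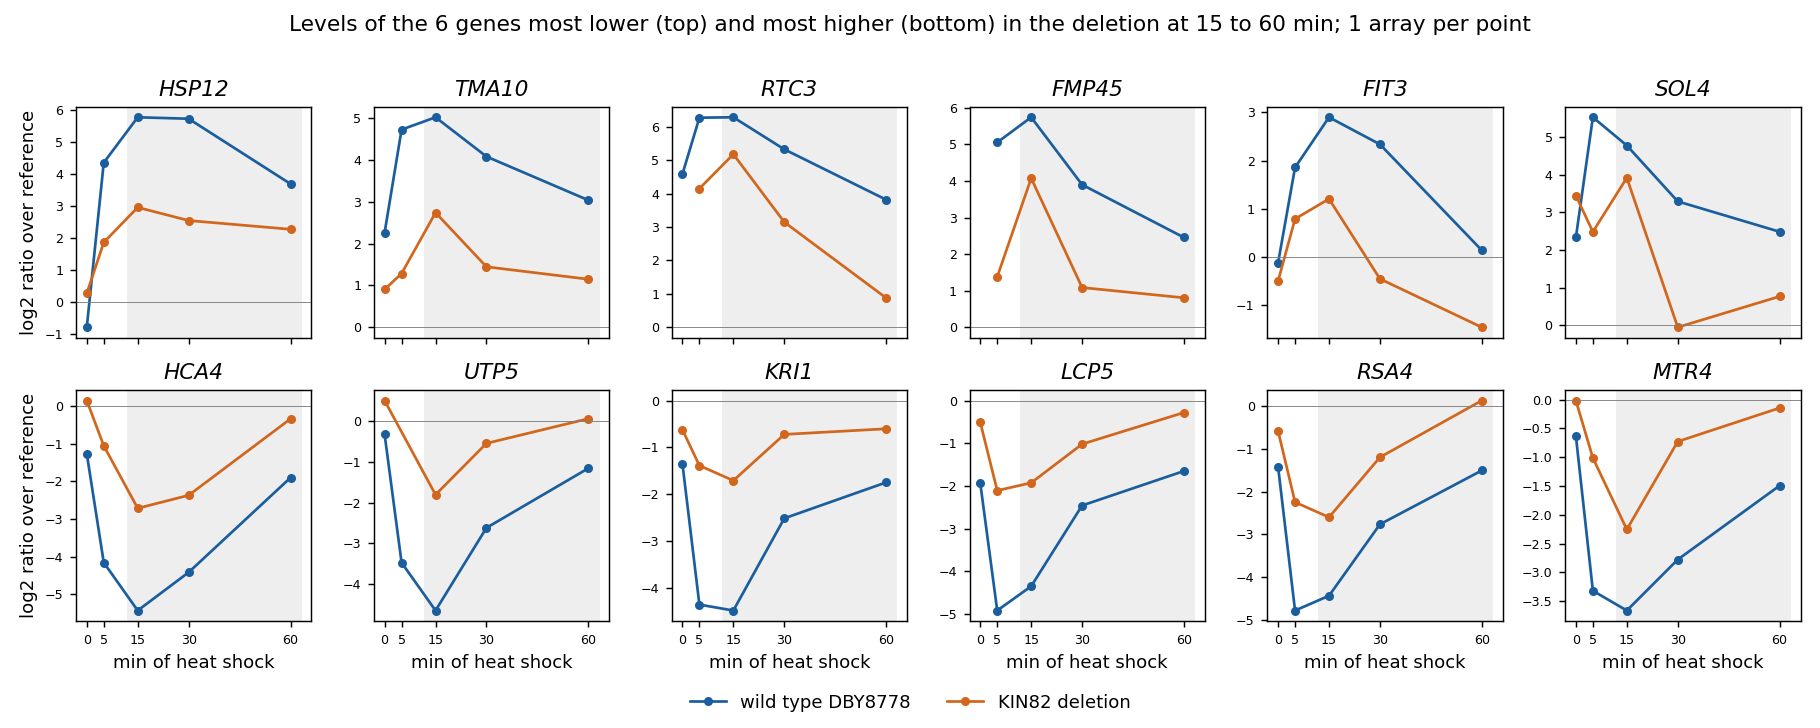
Log2 ratio over the reference (vertical axes, 1 scale per panel) against minutes of heat shock for the 6 genes with the most reduced (top) and most raised (bottom) late level in the deletion by the named rule, with wild type in blue, deletion in orange, 1 array per point and the late times shaded grey. HSP12 and TMA10 lie lower in the deletion on all 3 late arrays without overlap, and HCA4 and UTP5 lie nearer to 0 in the deletion at every late time.

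The 12 most raised genes were HCA4, UTP5, KRI1, LCP5, RSA4, MTR4, PUF6, NSA2, NOP2, RIX7, YGR079W and RRP1. Their differences ran from 1.43 to 2.11, or 2.69-fold to 4.31-fold, at adjusted p between 1.08e-05 and 0.000882. HCA4 encodes a DEAD-box RNA helicase needed to make the 18S rRNA of the small subunit. Its wild-type levels were -5.43, -4.42 and -1.90 at 15, 30 and 60 min and its deletion levels -2.72, -2.37 and -0.34. Both strains lay below the reference at every late time, the deletion less far, and the ranges overlapped because the wild type had partly returned by 60 min. The difference was 2.11 ± 0.27 (4.31-fold higher, adjusted p = 1.08e-05).

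UTP5 encodes a subunit of the small subunit processome, the particle in which the 18S rRNA precursor is folded and cut. It stood at -4.65, -2.62 and -1.16 in the wild type and at -1.81, -0.55 and 0.06 in the deletion, a difference of 2.04 ± 0.28. The deletion value at 60 min was the single one above the reference. KRI1, a nucleolar protein of 40S assembly, stood at -4.48, -2.51 and -1.75 in the wild type and at -1.71, -0.72 and -0.60 in the deletion. Its ranges lay next to each other without overlap, with a difference of 1.90 ± 0.28 (adjusted p = 8.22e-05).

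LCP5, a protein bound to the U3 particle, had wild-type levels of -4.35, -2.46 and -1.65 and deletion levels of -1.93, -1.02 and -0.28. RSA4, a factor of late 60S assembly, had wild-type levels of -4.44, -2.77 and -1.50 and deletion levels of -2.60, -1.19 and 0.14. In both genes the deletion was higher in each pair, and its 15 min value lay below the 60 min value of the wild type. The differences were 1.74 ± 0.27 for LCP5 and 1.68 ± 0.26 for RSA4. MTR4, the RNA helicase that feeds substrates to the nuclear exosome, stood at -3.66, -2.78 and -1.49 in the wild type and at -2.26, -0.73 and -0.15 in the deletion, which gave 1.60 ± 0.27. The largest MTR4 gap, 2.05, came at 30 min.

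Of the other 6, PUF6, NSA2, NOP2, RIX7 and RRP1 act in 60S assembly. PUF6 is an RNA-binding protein, NOP2 an rRNA methyltransferase and RIX7 an AAA-type ATPase that remodels the particle. Their differences were 1.59 ± 0.27 for PUF6, 1.59 ± 0.29 for NSA2, 1.53 ± 0.26 for NOP2, 1.49 ± 0.26 for RIX7 and 1.43 ± 0.26 for RRP1. The widest spread among them was in NSA2, whose gap was 2.59 at 15 min and 0.79 at 60 min. YGR079W has no assigned role and was higher by 1.46 ± 0.26, with gaps of 1.42, 1.29 and 1.68. PUF6 and KRI1 were the 2 of the 12 raised genes whose strain ranges did not overlap.

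**Figure D2:**
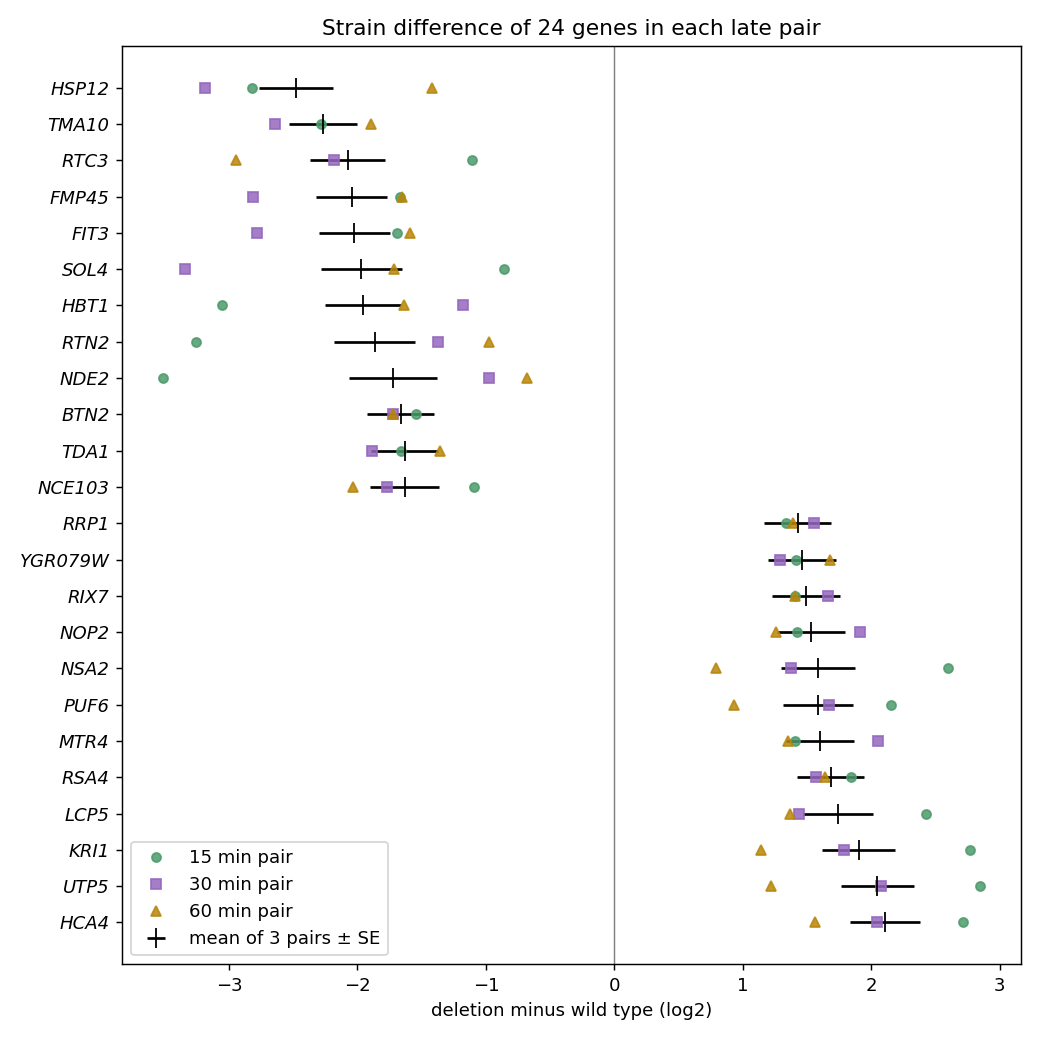
Deletion minus wild type (log2, horizontal axis) in the 15 min (circles), 30 min (squares) and 60 min (triangles) pairs for 24 genes (vertical axis), with the mean of the 3 pairs and its SE as black marks. Every gene has its 3 pairs on 1 side of 0, and the 15 min point of NDE2 lies farthest from the other pairs of its gene.

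Across all tested genes, the 3 wild-type and 3 deletion arrays did not overlap for 724 (12.9%), 342 with the deletion above and 382 with it below. Among the 284 called genes there were 111 such genes (39.1%), a share that the choice of called genes raises. The fit takes out the time effect, so most called genes differ within pairs and not as separate ranges. Across the 5595 genes the differences of the 15 and 30 min pairs correlated at r = 0.355, those of 15 and 60 min at 0.238 and those of 30 and 60 min at 0.419. These are descriptions across genes of 1 array pair each, and genes are not independent replicates.

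The Msn2 and Msn4 stress targets had the lowest median difference of the 39 gene lists. Of its 35 tested members, 22 were called lower and 1 higher, against 2.56% and 2.52% of all genes. In all, 33 members lay below 0, where the median of all tested genes was 0.01. Their median difference was -0.995, with medians of -0.995, -1.19 and -0.98 at 15, 30 and 60 min. As levels, the list's median was 3.76, 2.82 and 1.52 in the wild type and 2.74, 1.41 and 0.81 in the deletion. Both strains therefore held these transcripts above the reference late in the heat shock, the deletion less so. The list includes 7 of the 12 most reduced genes, and the activity of the factors was not measured. Without the 30 min pair 11 members were called lower, after quantile normalization within each pair 10, and after that of all 10 arrays 4.

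HOR7, a small protein gene induced by osmotic stress, was the 1 raised member of that list. Its levels were 3.76, 3.08 and 1.14 in the wild type and 5.68, 4.43 and 1.68 in the deletion. It was higher in the deletion in each pair, with overlapping ranges, by 1.27 ± 0.28 (adjusted p = 0.0046). It was also higher by 1.52 at 0 min. Under quantile normalization of all 10 arrays HOR7 had a difference of 2.21 at adjusted p = 0.00645.

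Trehalose is a sugar that protects proteins in the heat, and glycogen is the storage glucan built beside it. Of 20 tested genes of both pathways, 9 were lower and 0 higher, against 2.56% and 2.52% of all genes, with a median of -0.60. TSL1, a regulatory subunit of trehalose synthase, stood at 6.01, 5.10 and 3.61 in the wild type and at 4.01, 3.90 and 2.33 in the deletion. It was lower in each pair, with overlapping ranges, by -1.49 ± 0.27 (adjusted p = 0.000727). ATH1, the acid trehalase that breaks trehalose down, was lower by -1.36 ± 0.28 with no overlap between strains. The glycogen debranching enzyme GDB1 was lower by -1.29 ± 0.30, and GAC1, a subunit that directs a phosphatase to glycogen synthase, by -1.22 ± 0.31. The GAC1 gap was -2.56 at 60 min and -0.63 and -0.48 at the earlier late times. Without the 15 min pair GDB1 was at -0.71, and without the 60 min pair GAC1 was at -0.56, neither of them called. Both synthesis and breakdown enzymes were thus among the lower genes. Without the 30 min pair 6 genes of the list were called lower, after quantile normalization within each pair 2, and after that of all 10 arrays 0. PGM2 (-1.17) and GLC3 (-1.01), a phosphoglucomutase and the glycogen branching enzyme, were also called and were picked out after their values were seen.

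Among 31 Hsf1-dependent chaperone genes, 11 were lower, 1 was higher and 26 lay below 0, with a median of -0.61. Among all genes 2.56% were called lower and 2.52% higher. The list's median level was 3.27, 2.46 and 1.31 in the wild type at the 3 late times and 2.38, 1.67 and 0.83 in the deletion. The lower genes were BTN2, HSP78, SIS1, SSA4, SSA3, CUR1, STI1, SSA1, HSP104, SSA2 and SSE2, and SSA1 and SSA2 are near-identical copies that probes may not separate. HSP78, a mitochondrial disaggregase, stood at 5.51, 3.98 and 3.12 in the wild type and at 3.30, 2.90 and 2.02 in the deletion. Its ranges overlapped slightly, and the difference was -1.46 ± 0.28 (adjusted p = 0.0013). SIS1, an Hsp40 partner of Hsp70, was lower by -1.40 ± 0.29, with gaps of -1.92 and -1.89 at 15 and 30 min and -0.38 at 60 min.

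SSA4, the strongly heat-induced Hsp70, showed gaps of -2.29, -1.02 and -0.66, and its mean difference was -1.32 ± 0.29 (adjusted p = 0.00423). The SSA4 gap thus narrowed as both strains came down, from a wild-type level of 5.24 at 15 min to 1.49 at 60 min, and without the 15 min pair its difference was -0.84 and not called. CNS1, a co-chaperone of Hsp90 and Hsp70, was the 1 raised member. It stood at -2.81, -1.60 and -0.66 in the wild type and at -1.10, -0.03 and -0.10 in the deletion, so that it lay below the reference in both strains, and the difference was 1.28 ± 0.27. The chaperone counts were among the least stable: no chaperone was called after quantile normalization of all 10 arrays, 1 was lower and 1 higher after quantile normalization within each pair, and 6 were lower without the 30 min pair.

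**Figure D3:**
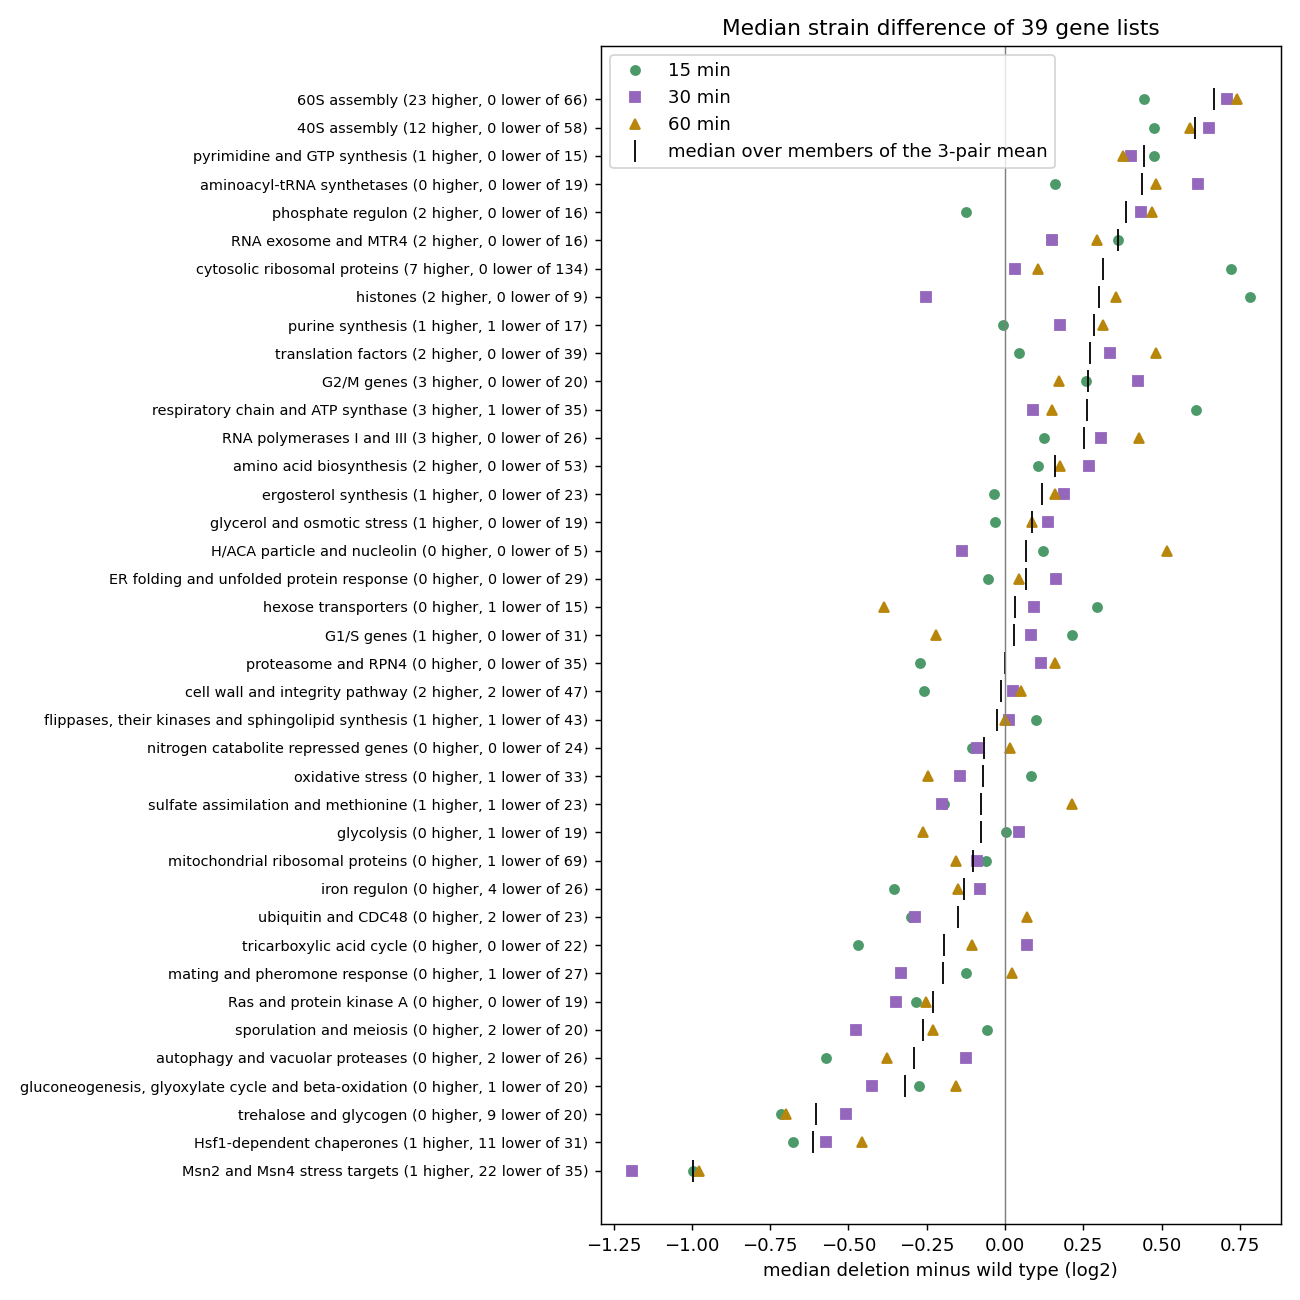
Median deletion minus wild type (log2, horizontal axis) over the tested members of each of 39 gene lists (vertical axis, with the number called in each direction) at 15, 30 and 60 min, and the median of the members' 3-pair means as a black mark. Msn2 and Msn4 targets lie lowest at -0.995, and 60S assembly lies highest at 0.67.

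Of 58 tested genes of 40S assembly, 12 were higher and 0 lower, with a median of 0.61, against 2.52% higher among all genes. Of 66 tested genes of 60S assembly, 23 were higher and 0 lower, with a median of 0.67. The 40S medians were 0.48, 0.65 and 0.59 and the 60S medians 0.44, 0.71 and 0.74 at 15, 30 and 60 min. At the level of the lists, 40S genes stood at -2.73, -2.06 and -1.09 in the wild type and at -2.21, -1.38 and -0.44 in the deletion. The 60S genes stood at -2.91, -2.17 and -1.17 in the wild type and at -2.35, -1.39 and -0.51 in the deletion. Both strains thus rose toward the reference between 15 and 60 min, and the deletion was nearer to it at each time. Without the 30 min pair 5 genes of 40S and 14 of 60S assembly were called higher, after quantile normalization within each pair 6 and 9, and after that of all 10 arrays 3 and 0. NOP7, a scaffold of 60S precursors, was higher by 1.29. GRC3, a polynucleotide kinase of rRNA processing, and RRP8, an rRNA methyltransferase, are in no list, were picked out after their values were seen, and were higher by 1.38 and 1.33.

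Other parts of the machinery for ribosome production gave fewer calls, to be read beside 2.52% called higher among all genes. The RNA exosome and MTR4 had 2 of 16 genes higher, MTR4 and the cap subunit RRP4 (1.21 ± 0.26). RNA polymerases I and III had 3 of 26 higher, RPC53, RET1 and RPC37, by 0.97, 0.96 and 0.91, all 3 of them subunits of polymerase III. None of the 26 was called without the 30 min pair, without the 60 min pair or after either quantile normalization. None of the 5 genes of the H/ACA particle and nucleolin was called, and their median was 0.07. CBF5, the pseudouridine synthase of that particle, was at 0.34 ± 0.27 (adjusted p = 0.544).

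Cytosolic ribosomal proteins had 7 of 134 genes higher and 0 lower, against 2.52% and 2.56% of all genes, with a median of 0.31. The list's median was 0.72 at 15 min, 0.03 at 30 min and 0.10 at 60 min, so its difference lay mostly in the first late pair. RPL4A, a protein of the large subunit, stood at -2.46, -1.31 and -0.71 in the wild type and at -1.23, -0.59 and 0.53 in the deletion, a difference of 1.06 ± 0.26. RPL30 differed by 2.13 at 15 min and by 0.15 at 60 min. Without the 30 min pair 2 ribosomal protein genes were called, without the 15 min pair 1, and after either quantile normalization 0. Most of these proteins are encoded by duplicated genes whose probes may not be separate. Mitochondrial ribosomal proteins had 1 of 69 called, MRPS28, which was lower by -0.87 ± 0.26.

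The 39 translation factors held 2 higher genes, TEF1 (0.99), a translation elongation factor with a near-identical copy, and GCD10 (1.01), a tRNA methyltransferase subunit. That count stands beside 2.52% called higher among all genes. None of the 19 aminoacyl-tRNA synthetases was called, although 19 of 19 lay above 0 with a median of 0.44, against 0.01 for all tested genes. The nearest was GRS1 at 0.77 ± 0.26 (adjusted p = 0.0824).

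Of the 141 genes higher in the deletion, 35 were in the 40S and 60S assembly lists and 71 in no list. Those 2 lists hold 58 and 66 of the 5595 tested genes. Of the 143 lower genes, 42 were in the lists of chaperones, Msn2 and Msn4 targets or trehalose and glycogen, and 81 in no list. These stress lists hold 31, 35 and 20 tested genes in that order. The share of all tested genes in no list was not computed, so 71 and 81 have no background beside them. No lower gene was in the assembly lists, and the 2 higher genes of the stress lists were HOR7 and CNS1. Calls of single genes often needed all 3 pairs. Of all 284 called genes, 191 kept their call without the 15 min pair. Without the 30 min pair 77 kept it, and without the 60 min pair 162. The 94 called genes followed by name were picked mainly as leading genes and do not stand for all 284. Of these 94, 26 lost their call without the 15 min pair, 47 without the 30 min pair and 30 without the 60 min pair. In all, 57 lost it at least once and 37 never did. Beside 23 of the 24 most changed genes, those 37 were HSP78, TSL1, ATH1, HOR7, NOP7, RRP4, RRP8, ARO2, URA1, UBC8, TMC1, AGA1, MET18 and TPO4. Besides genes whose value is given where they are described, those that moved by over 1.5 times were RTN2 (-1.17), RPL30 (0.43), CIS3 (0.62), PDR5 (-0.45), PDR15 (-0.56), GLC3 (-0.63) and VTC4 (1.85) without the 15 min pair, and SOL4 (-1.29), VTC4 (0.73) and GPP2 (0.67) without the 30 min pair. Of these, RTN2 and SOL4 kept their calls, and VTC4 kept its call without the 15 min pair.

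The lists of central metabolism held few calls, to be read beside 2.52% called higher and 2.56% called lower among all genes. The tricarboxylic acid cycle had 0 of 22 called, with a median of -0.20. The respiratory chain and ATP synthase had 3 of 35 higher, ATP3 (0.97), ATP16 (0.87) and COX5A (0.93), and 1 lower, NDE2. The first pair are subunits of the central stalk of ATP synthase, and COX5A is a subunit of cytochrome c oxidase. The strains' ranges did not overlap for ATP3 and COX5A. GLK1, a glucokinase whose gene overlaps YCL042W, was the 1 lower gene of 19 of glycolysis (-1.07, and -0.62 with no call without the 30 min pair), HXT7, a high-affinity hexose transporter with a near-identical copy, of its list (-1.01), and ACS1, an acetyl-CoA synthetase, of gluconeogenesis and related pathways (-1.39 ± 0.27).

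Biosynthetic enzymes that were higher included ARO2 (1.25), chorismate synthase, HIS7 (1.05) of histidine synthesis, ADE1 (1.10) of purine synthesis and URA1 (1.20), the dihydroorotate dehydrogenase. ARO2 stood at -2.03, -1.48 and -0.83 in the wild type and at -0.69, -0.41 and 0.51 in the deletion, with no overlap. Lower were GCV2 (-1.27), a subunit of the glycine cleavage system counted with the purine genes, and MET3 (-1.14), the ATP sulfurylase of sulfate assimilation. MMP1, a transporter of S-methylmethionine, was higher by 0.93. In the phosphate list, 2 of 16 were higher: VTC4 (1.20 ± 0.31), the polyphosphate polymerase, whose gap was -0.10 at 15 min and 2.13 at 30 min, and GPP2 (1.01), a glycerol phosphatase that also stands in the glycerol list. ERG20 (0.93), the farnesyl diphosphate synthase, was the 1 higher ergosterol gene. Among all genes 2.52% were called higher and 2.56% lower, which these counts stand beside.

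The iron list had 4 of 26 lower and 0 higher, against 2.56% and 2.52% of all genes, with a median of -0.13. These were FIT3, FIT2 (-1.51 ± 0.27) and FIT1 (-1.15 ± 0.26), the 3 related mannoproteins of siderophore retention, and FRE4 (-0.88 ± 0.27), a ferric reductase. FIT2 stood at 3.34, 2.63 and 0.26 in the wild type and at 2.15, 0.39 and -0.85 in the deletion. All 3 FIT genes were lower in each pair. The other 22 genes of the list were not called. FRE4 lost its call when any 1 late pair was left out. FIT1 lost its call without the 30 min or the 60 min pair, and FIT2 without the 30 min pair. At 0 and 5 min FRE4 was higher in the deletion, by 0.40 and 1.14.

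The list nearest to the known role of Kin82 holds flippases, their kinases and sphingolipid synthesis. Of its 43 tested genes 1 was higher and 1 lower, against 2.52% and 2.56% of all genes, and its median was -0.03. The calls in this list were thus near the share of all genes in both directions. YPK2, an AGC kinase of the sphingolipid signalling branch, stood at 1.78, 1.85 and 0.67 in the wild type and at 0.62, 0.09 and -0.11 in the deletion. The ranges lay just apart, and the difference was -1.23 ± 0.27 (adjusted p = 0.00453). LCB3, a phosphatase of long-chain base phosphates, stood at -1.07, -0.53 and -0.44 in the wild type and at 0.09, -0.07 and 0.61 in the deletion, again without overlap, and was higher by 0.89 ± 0.27 (adjusted p = 0.0442). The YPK2 call was lost without the 30 min pair, and the LCB3 call when any 1 of the 3 pairs was left out.

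Of the remaining lists, the proteasome, the unfolded protein response, nitrogen repression and Ras and protein kinase A held no called gene. In the last of these, 16 of 19 lay below 0, with a median of -0.23, where the median of all tested genes was 0.01. The counts of called genes here stand against 2.52% called higher and 2.56% called lower among all genes. Of 23 ubiquitin genes 2 were lower, UBC8 (-1.34) and TMC1 (-1.21). Of 26 autophagy genes 2 were lower, ATG7 (-0.94) and ATG1 (-0.92), both needed to form autophagosomes, and none was called when any 1 late pair was left out. Of 47 cell wall genes 2 were lower, SPI1 (-1.27) and the yapsin protease YPS1 (-1.07), and 2 higher, CIS3 (0.98) and the chitin synthase CHS2 (0.92), with no call without the 30 min pair. Of 33 oxidative stress genes 1 was lower, GND2 (-1.25), a 6-phosphogluconate dehydrogenase, whose difference was -0.64 (not called) without the 15 min pair.

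Cell cycle and developmental genes gave a few calls. The histone genes HHF1 (1.15) and HHT1 (0.94), which encode H4 and H3 and have near-identical copies, were higher among 9 histone genes. The G2/M list had CLB1 (1.12), a mitotic cyclin, CHS2 and FKH1 (0.90), a forkhead factor, higher, and the G1/S list POL30 (0.92), the sliding clamp. Lower were AGA1 (-1.35), the anchor of a-agglutinin, and the meiotic chromosome proteins HOP1 (-1.16) and ZIP1 (-0.90). AGA1 had ranges apart and gaps of -1.30, -1.42 and -1.34. Among these cell cycle and developmental genes, only AGA1 kept its call without the 30 min pair. CHS2 and FKH1 lost theirs when any 1 late pair was left out. Among all genes 2.52% were called higher and 2.56% lower. Several transporter genes singled out after their values were seen were also lower: the drug efflux pump PDR5 (-1.22), its relative PDR15 (-1.07), the drug transporter QDR2 (-1.03) and the polyamine exporter TPO4 (-1.43). The PDR5 gap was -2.76 at 15 min and -0.15 at 60 min, whereas TPO4 differed by -1.53, -1.30 and -1.45.

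The change from 0 to 5 min used 4 arrays that played no part in the late difference. Averaged over the strains, the genes called higher in the deletion changed by a median of -0.76 over those 5 min, and 105 of 128 fell below 0 (82.0%). Those called lower changed by a median of 0.88, with 105 of 123 above 0 (85.4%). Over all tested genes with values the median was -0.00025, and 2583 of 5170 lay above 0. The strains differed in these changes. Genes called higher had medians of -1.21 in DBY8778 and -0.50 in delKIN82, and genes called lower 1.26 and 0.47. For all tested genes the medians were 0.03 and -0.02. Late levels were less spread on the deletion arrays: the ratio of the deletion SD to the wild-type SD was 0.899 at 15 min, 0.889 at 30 min and 0.866 at 60 min. The median absolute deviation, which weighs the bulk of genes, had ratios of 1.01, 1.03 and 0.954. When both arrays of a pair were given the same distribution of values, 108 genes were called, all 108 among the 284. When they were given the same median absolute deviation, 307 were called, among them all 284. What part the array spread has in the calls was not tested further.

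**Figure D4:**
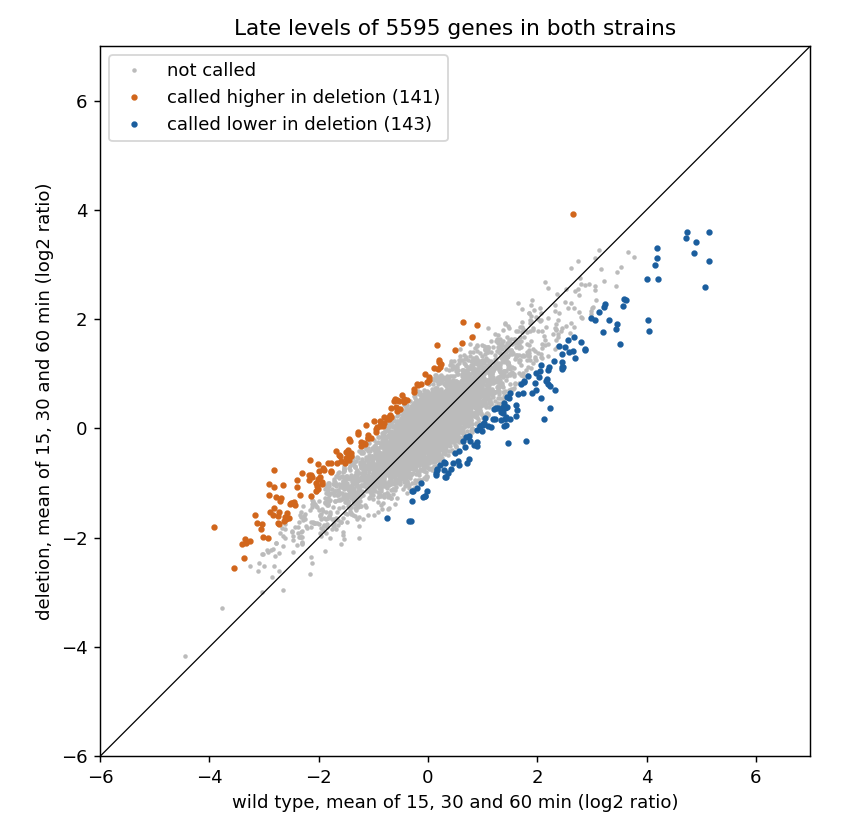
Mean log2 ratio over the reference at 15, 30 and 60 min in the wild type (horizontal axis) and the deletion (vertical axis) for 5595 genes, each 1 point, with the line of equal levels. The 143 genes called lower (blue) lie below the line and the 141 called higher (orange) above it. Some called genes, such as HSP12 and HCA4, lie nearer to 0 in the deletion, and others, such as HIS7 and GPP2, farther from it.

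Whether the deletion arrays matched the wild type of the same time was also examined. Each late deletion array correlated best with the wild-type array of its own time, at r = 0.863 for 15 min, 0.782 for 30 min and 0.652 for 60 min. The next best was the 30 min wild-type array for the 15 min deletion array (0.829), the 15 min one for 30 min (0.765) and the 30 min one for 60 min (0.533). The margin was smallest for the 30 min deletion array. Read from the wild-type side, only the 15 min array correlated best with its own partner. The 30 min wild-type array correlated better with the 15 min deletion array (0.829) than with the 30 min one (0.782). The 60 min wild-type array correlated better with the 30 min (0.712) and 15 min (0.705) deletion arrays than with the 60 min one (0.652).

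In log2 units the strain difference was smaller at 60 min than at 15 min. At least 2-fold differences were seen for 336 genes higher (5.76%) and 343 lower (5.88%) of 5837 in the 15 min pair, for 288 (4.93%) and 287 (4.91%) of 5846 in the 30 min pair and for 153 (2.61%) and 169 (2.89%) of 5856 in the 60 min pair. The SD of the differences over the tested genes was 0.642, 0.619 and 0.501 in that order. The levels themselves also spread less, with a wild-type SD of 1.27 at 15 min and 0.64 at 60 min. The 2 arrays of a pair correlated at 0.863 at 15 min and 0.652 at 60 min. The difference was therefore not smaller at 60 min by every measure. The called higher genes had medians of 1.17, 1.16 and 0.91 and the called lower genes -1.16, -1.14 and -0.95. Each time has 1 pair, so these are values with no test. The title of the 60 min deletion array marks a repeat and those at 15 and 30 min do not. Time and repeat therefore cannot be told apart in this trend.

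The 0 and 5 min pairs took no part in choosing the called genes. At 5 min, 503 genes were at least 2-fold higher in the deletion (8.8%) and 546 lower (9.56%) of 5713, the most of any time. At 0 min these were 167 (2.91%) and 105 (1.83%) of 5744. Of the genes called higher late, 122 of 133 lay above 0 at 0 min (91.7%, against 54.0% of all tested genes) and 126 of 136 at 5 min (92.6%, against 50.4%). Their medians were 0.60 at 0 min and 1.25 at 5 min. Of those called lower late, 107 of 130 lay below 0 at 0 min (82.3%, against 46.0% of all) and 126 of 135 at 5 min (93.3%, against 49.6%), with medians of -0.43 and -1.05. The direction of the late difference was thus already present in most of these genes on both early pairs. Of the 12 most reduced genes, HSP12, SOL4, TDA1 and NDE2 were higher in the deletion at 0 min, by 1.06, 1.11, 0.33 and 0.04, and all 4 were lower at 5 min. The 5 min differences of HSP12 and SOL4 were -2.50 and -3.04.

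**Figure D5:**
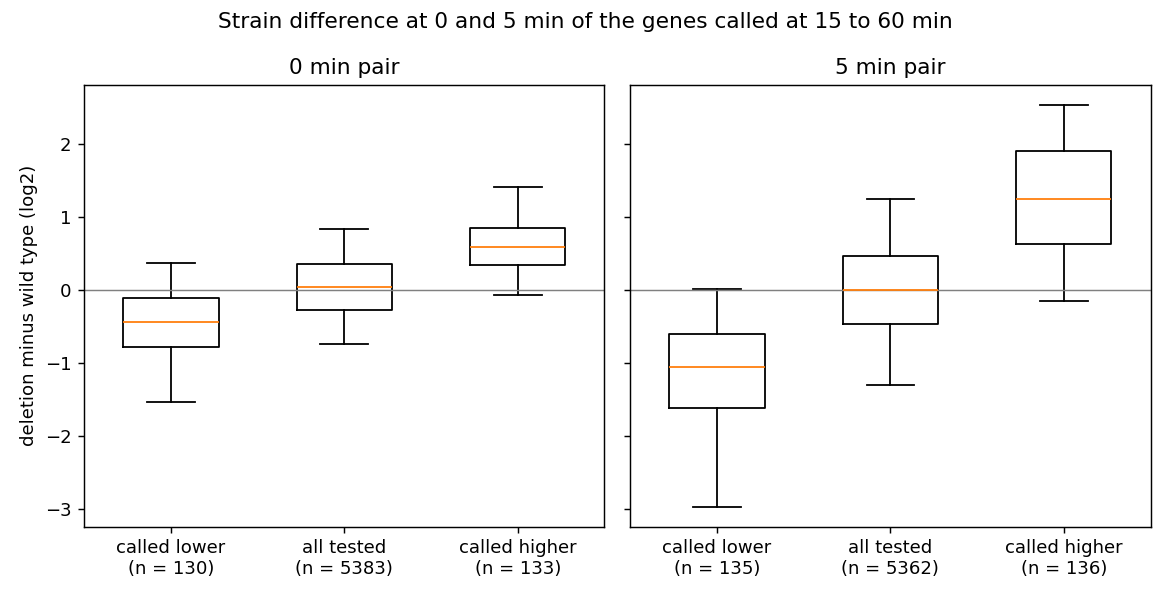
Deletion minus wild type (log2, vertical axis) in the 0 min pair (left) and the 5 min pair (right) for the genes called lower late, all tested genes and the genes called higher late. Lines mark the medians, boxes the middle 50% of genes and whiskers the 5th to 95th percentile. The called lower genes have medians of -0.43 and -1.05 and the called higher genes 0.60 and 1.25.

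Whether the late difference departed from the early one was tested as a strain by phase term on all 10 arrays. Of 5170 genes with a value on every array, 0 were called in limma (percent called 0), 294 had an unadjusted p under 0.05, and the lowest adjusted p was 0.326. When the 0 min pair was left out 30 genes were called, and when the 5 min pair was left out 1. The early side averages the 0 and 5 min pairs. Where these 2 disagree, as for HSP12 (1.06 and -2.50), their spread enters the residual. With 2 early and 3 late pairs no gene was called, which does not show that early and late differences were alike. The lowest p-values belonged to ADE17, MET18 and MET6, with terms of -2.12, -1.99 and -2.01 (adjusted p = 0.326 for each). ADE17, an enzyme of purine synthesis, was higher in the deletion by 2.87 and 2.37 at 0 and 5 min and differed by -0.01, 0.99 and 0.53 at the late times. MET18, a factor of iron-sulfur cluster assembly, was higher by 0.65 and 0.87 early and lower by -1.85, -0.93 and -0.93 late. MET6, the methionine synthase, was higher by 0.98 and 1.68 early and lower by -1.22, -0.50 and -0.34 late. In the other direction ARP6, a subunit of the SWR1 chromatin remodeller, differed by -0.17 and -0.86 early and by 0.91, 1.36 and 1.25 late (term 1.69, adjusted p = 0.404). YGR153W, which has no assigned role, and CAB3, of coenzyme A synthesis, had terms of 1.84 and 1.58, from early differences of -2.49 and -2.01 in YGR153W and of -1.16 and -1.93 in CAB3. MET18 and ARP6 were also called over the late pairs alone, at -1.24 ± 0.27 and 1.18 ± 0.26.

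Some genes differed in 1 late pair from the mean of the other pairs. ATG8, the ubiquitin-like protein of autophagosome membranes, differed by 1.64 at 15 min, -0.01 at 30 min and -1.52 at 60 min. EGT2, a cell separation gene, differed by -2.13, 1.08 and 0.24. UBP5, a deubiquitinase, differed by 3.34 at 30 min and by -0.57 and 0.09 at 15 and 60 min. The mean difference of UBP5 was 0.95 (adjusted p = 0.167), and it was called without the 15 min pair and without the 60 min pair. The other genes that departed most in 1 pair were RPL29 at 15 min (1.59), NIP100 (-1.58) and YBR138C (-1.996) at 30 min, and YGR160W (1.97), PHM6 (0.82) and YFL043C (-1.39) at 60 min. NDE2, described above as called, was also among them, at 15 min. These were chosen by rule for their departure, and with 1 array per strain and time a spot error and a strain by time effect cannot be told apart.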

How the data were processed

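The authors deposited a table of log ratios of the 2 channels of each array, which were read as log2 values. The sources used here do not give dyes, scanner, background correction, normalization or filters, and spot intensities were not used here. Locus tags were matched to RefSeq symbols (R64) for 5484 of 5983 rows, and 499 rows keep systematic names. Each array was centred on its median. The late difference was estimated by lmFit and eBayes (limma 3.58.1, R 4.3.3) on the 6 late arrays with time as a factor plus strain, on the 5595 genes with all 6 values. With 2 residual degrees of freedom and a prior of 31.7, the residual mixes noise of the arrays with any interaction of strain and time. P-values were adjusted by Benjamini-Hochberg over all genes tested, with calls under 0.05. Late minus early added a strain by phase term on all 10 arrays. By rule, the text names the 12 called genes with the largest differences each way that share a sign in all 3 pairs, and the leading genes of each list. The comparison, its members and the 39 lists were chosen with earlier results of these data known. The number of arrays limits the precision. Of the settings tried, 13 bear on the late difference and 9 on late minus early. The fitting was tested on simulated data. Promoter sequences were not used here.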

Additional observations from a re-analysis of the deposited data

How the results depend on the processing

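The number of genes called over the late pairs, 284, became 12 after quantile normalization of all 10 arrays, 108 after quantile normalization within each pair (chosen after seeing the data), 107 when strain was fitted on all 10 arrays and 0 without time as a block, where 374 genes had an unadjusted p under 0.05. Leaving out 1 late pair gave 79 to 335 calls, and leaving out 1 pair gave 0 to 30 calls for late minus early. Scaling by median absolute deviation, over all arrays or within pairs, gave 345 and 307, and no centring 310, of which 59.7% were higher in the deletion against 49.6% in the centred values. All 12 and all 108 quantile calls were among the 284. The 12 were called under every scaling tried, and are HCA4, UTP5, KRI1, HOR7, YRO2 and YDR209C higher and TMA10, FMP45, FIT3, HBT1, RTN2 and TDA1 lower. None of the 24 most changed genes reversed under any of these settings. HSP12 missed the threshold after quantile normalization of all arrays (adjusted p = 0.066), BTN2 after that within pairs (0.109) and SOL4 on all 10 arrays (0.079). No paired analysis by replicate number was possible because each strain and time has 1 array. Pairing by time is the design itself.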

Other observations

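Neighbouring genes were called together in places. Of 4418 pairs of neighbouring tested genes in the RefSeq order, 13 were both higher, 10 both lower and 5 opposite. The partner of a higher gene was also higher in 10.9% of cases, against 2.52% of all genes, and the partner of a lower gene also lower in 8.77%, against 2.56%. Among these pairs were NSA2 and LCP5, GCD10 and NOP2, and GRC3 and RIX7, all 6 of them higher and tied to ribosome or tRNA production, HHF1 and HHT1, and on the lower side HBT1 and FMP45, FIT2 and FIT3, YPK2 and PGM2, and UBC8 and GLC3. These pairs were singled out after their values were seen. In 2 of the 23 pairs the genes overlap.

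The neighbours of the deleted gene did not share a call. YCR090C differed by -0.13 ± 0.26 (adjusted p = 0.858). MSH3, a mismatch repair gene, had lower levels in the deletion by nearly the same step in each late pair, -0.84, -0.83 and -0.82, and missed the threshold at adjusted p = 0.0556. It was also lower by -0.43 at 0 min and by -0.70 at 5 min.

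By chromosome, the median late difference ran from -0.17 on chromosome I (79 genes) to 0.09 on chromosome II (355 genes), with -0.15 on chromosome VI (103 genes).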
